A study of Drosophila melanogaster with 8 samples.

Results

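Gene expression was compared in whole adult ovaries of Drosophila melanogaster between flies in which stwl, the gene of the chromatin protein Stonewall, was targeted by RNA interference with the driver bamGAL4 and the matching bamGAL4 controls. All genes that passed a filter on low counts were taken, which were 8957 of the 14094 genes in the table, measured in 4 of the study's 8 libraries. The 2 control libraries came from flies of the genotype bamGAL4. The 2 libraries labelled as germline knockdown came from flies of the genotype bamGAL4>stwl RNAi/TM6, which carried the hairpin and also TM6, a balancer of chromosome 3. Because the control's listed genotype has neither, the hairpin and the balancer cannot be told apart in this comparison. All ovaries were dissected between 1 and 3 days after eclosion. The labels do not say whether the libraries of a group came from separate flies, so p-values measure only the spread between these libraries. The study's other 4 libraries used the driver nosGAL4, with 2 controls (nosGAL4;MKRS/TM6) and 2 libraries labelled knockdown (nosGAL4;stwl RNAi/TM6). They share no library with the bamGAL4 groups. All 8 libraries were fitted together, so these also enter the filter, the scaling and the estimate of the spread. They serve as well where the effects of the drivers are compared and as the reference for levels by chromosome arm.

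A Drosophila ovary holds strings of egg chambers, in which nurse cells and an oocyte are wrapped in somatic follicle cells, and the strings lie in sheaths of muscle with haemocytes and fat body nearby. Nurse cells load the egg with ribosomes, stored mRNA and proteins. The driver bamGAL4 is used to express transgenes in dividing germline cysts, after the stem cell stage, and Stonewall is a DNA-binding MADF-domain protein known for its need in the germline. Libraries of whole ovaries mix all these cells, and fewer cells of a type and less RNA per cell cannot be told apart.

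The targeted gene did not check the labels. Normalised expression of stwl (FBgn0003459, dm6 3L:14402930-14409939) was 18.2 and 21 CPM in the controls against 23.2 and 29.6 CPM under the knockdown label. CPM is a gene's count scaled by the library's total and its TMM factor. Where 4 values are given, the first pair are controls 1 and 2 and the pair after "against" or "to" are libraries 1 and 2 labelled knockdown. The log2 fold change, labelled knockdown over control and written as log2 change from here on, was 0.43 (SE 0.36, adjusted p = 0.313) by edgeR's quasi-likelihood test with Benjamini-Hochberg adjustment over all genes. Scaling to the ribosomal protein genes gave 1.32 (adjusted p = 0.008) and removal of a trend on transcript length gave −0.44 (adjusted p = 0.304), so the direction depends on the processing. Reads of the gene and of the hairpin are not separated in counts per gene. For these reasons that group is called the libraries labelled knockdown throughout.

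Total counts ran from 7473859 to 12174983 per library. The bamGAL4 libraries of a group agreed across genes with Pearson's r of 0.975 (controls) and 0.989 (labelled knockdown), but not within sampling noise, as the chi-square of their counts per degree of freedom was 133 and 33.1. The 10 most abundant genes took 21.6% and 15.1% of counts in the controls and 10.8% and 13.6% in the libraries labelled knockdown. Markers of other cell types moved with the groups. 3 of the 24 germline markers tested were higher and 16 lower (median log2 fold change −3.66), and 1 of the 24 late egg chamber markers tested was higher and 21 lower (median log2 fold change −9.12). The 24 muscle markers summed to 959.6 and 1045 CPM in the controls against 62964 and 57637 CPM under the knockdown label, and 23 were higher. The 13 haemocyte markers, all higher, summed to 409 and 577 CPM in the controls against 13616 and 12286 CPM under the knockdown label, and the 15 fat body markers, all higher, to 417 and 398 CPM in the controls against 9871 and 11229.7 CPM under the knockdown label. Among neuron and glia markers 9 of 10 tested were higher, with a sum of 56.7 and 66.5 CPM in the controls against 1315 and 1365 CPM under the knockdown label. Follicle, escort and niche cell markers were higher in 15 of 20 and lower in 1. The part of these cell types in the results that follow was not tested.

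Of the 8957 genes, 3138 (35%) were higher and 2961 (33.1%) lower in the libraries labelled knockdown at an adjusted p below 0.05, or 68.1% in all. At least a 2-fold change was fitted for 2788 of the former and 2409 of the latter. The median log2 fold change over all genes was −0.06, and it became 0.16 with RLE scaling, −0.27 with library totals and 0.80 with scaling to the ribosomal protein genes. The last of these gave 4138 genes higher and 1185 lower, so the balance of directions depends on the scaling. Among the risers 203 had no count in either control, and 28 of the genes that fell had none in either library labelled knockdown. A gene near the detection floor in the controls has little room to be called lower, so the 6641 genes with at least 5 CPM in both controls were also counted. Of those 23.2% were higher and 43.6% lower, with a median log2 fold change of −0.53. The groups did not overlap for 87.2% of the genes tested.

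The largest absolute gains outside muscle were in secreted matrix and haemolymph proteins. The perlecan gene trol (FBgn0284408, dm6 X:2470460-2545427) was at 66.6 and 67 CPM in the controls against 5711 and 6354 CPM under the knockdown label (log2 change 6.50, SE 0.32, adjusted p = 2.40e-07). Papilin, a matrix proteoglycan-like protein encoded by Ppn (FBgn0003137, dm6 3R:28520665-28540324), was at 11.5 and 23.3 against 5360.0 and 5654 CPM (log2 change 8.29, SE 0.46, adjusted p = 3.38e-07). Peroxidasin, a matrix peroxidase encoded by Pxn, was at 3.14 and 9.1 against 4527 and 3846 CPM (log2 change 9.38, SE 0.63, adjusted p = 2.16e-06). All 3 stood at under 70 CPM in each control. The thioester protein gene Tep4, of the innate immune system, was at 26.2 and 35.5 against 3874 and 3709 CPM (log2 change 6.94, SE 0.30, adjusted p = 1.99e-07), and apolpp (FBgn0087002, dm6 4:1060969-1077273), which encodes the main lipoprotein of the haemolymph, at 12.6 and 5.22 against 4348 and 6531 CPM (log2 change 9.28, SE 0.76, adjusted p = 1.62e-05). The sixth was the uncharacterised CG7443, at 40.8 and 66.9 against 4447 and 3158 CPM (log2 change 6.14, SE 0.40, adjusted p = 7.38e-07). Other large rises among genes with at least 5 CPM in both controls were those of Cyp4g1, Drip and Ziz. Cyp4g1, a cytochrome P450 of cuticular hydrocarbon synthesis, was at 21.9 and 21.3 against 2832 and 2351 CPM (log2 change 6.91, SE 0.56, adjusted p = 6.61e-06). The aquaporin gene Drip was at 9.03 and 6.49 against 780.0 and 736 CPM (log2 change 6.62, SE 0.29, adjusted p = 1.99e-07). Ziz, which encodes a guanine nucleotide exchange factor of the DOCK family, was at 6.28 and 5.93 against 531 and 699 CPM (log2 change 6.65, SE 0.40, adjusted p = 5.40e-07). Lack of overlap between the groups was required for naming these genes, and it held for 87.2% of all genes tested.

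Genes that went from no count to clear expression are given by a lower bound, set against a floor of 3 counts over the 2 controls. The phagocytic receptor gene NimC1, a haemocyte marker, had no count in either control and stood at 168 and 145 CPM under the knockdown label, at least 1063-fold higher. The cadherin gene stan, of planar cell polarity, stood at 49.1 and 65.7 CPM under the knockdown label and was at least 384-fold higher. Frq2, which encodes the calcium sensor Frequenin 2, had 1 count over both controls and 219.9 and 264 CPM under the knockdown label (ratio of normalised summed counts 4879, 95% counting interval 875 to 192736). The haemocyte gene Hml, encoding the clotting protein Hemolectin, was at 0.131 and 0.791 CPM in the controls against 1554 and 1745 CPM under the knockdown label (log2 change 11.58, SE 0.49, adjusted p = 1.99e-07). Of the 8 largest rises, armi was set aside. Its reads cannot be told apart from those of CG46463, a gene on the same strand whose exons it shares at 3L:3461317-3466314. As listed, armi had no count in any control and 34.9 and 51.7 CPM under the knockdown label, while CG46463 was at 78.3 and 112 against 156.4 and 179 CPM. The sum of both genes was 78.3 and 112 against 191 and 230.4 CPM, so the rise at the shared locus was far smaller than that of armi alone.

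The largest falls among genes still at 5 CPM or more in both libraries labelled knockdown included genes known from the oocyte and the cell cycle. The vitellogenin receptor gene yl (FBgn0004649, dm6 X:14193214-14199958), which takes yolk into the oocyte, was at 951 and 2393 CPM in the controls against 7.8 and 13.1 CPM under the knockdown label (log2 change −7.32, SE 0.56, adjusted p = 4.35e-06). The mitotic cyclin gene CycB was at 1808 and 1947 against 33.7 and 40.6 CPM (log2 change −5.66, SE 0.59, adjusted p = 5.09e-05). The gene gwl, which encodes the mitotic kinase Greatwall, was at 179.6 and 266 against 6.29 and 6.75 CPM (log2 change −5.09, SE 0.45, adjusted p = 7.76e-06). The translational repressor gene bru1 was at 908 and 713 against 16.8 and 29.4 CPM (log2 change −5.13, SE 0.51, adjusted p = 2.69e-05). RpS5b, a paralog of a small ribosomal subunit protein, was at 996 and 1282 against 30.6 and 31.5 CPM (log2 change −5.20, SE 0.53, adjusted p = 3.73e-05). The uncharacterised CG10407 was at 427 and 345 against 6.38 and 7.65 CPM (log2 change −5.78, SE 0.83, adjusted p = 0.000889). Both libraries labelled knockdown kept between 6 and 41 CPM of each of these genes. In absolute terms the small heat shock gene Hsp26 (FBgn0001225, dm6 3L:9376418-9377427) lost most among protein-coding genes outside the germline, egg and muscle lists, from 3594 and 3359 to 122 and 85.2 CPM (log2 change −5.07, SE 0.31, adjusted p = 5.53e-07). The Hsp90 gene Hsp83 went from 3452 and 4481 to 1349.8 and 1319.9 CPM (log2 change −1.57, SE 0.23, adjusted p = 0.00019, or −0.70 and no longer called with ribosomal protein scaling). The other absolute falls were in RpL41 and in 3 copies of 28S rRNA pseudogenes, which are near-identical to each other and to the rDNA, so their counts are uncertain. All 21 annotated rRNA genes together took 16.9% and 11.6% of control counts and 4.94% and 8.94% in the libraries labelled knockdown.

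**Figure D1:**
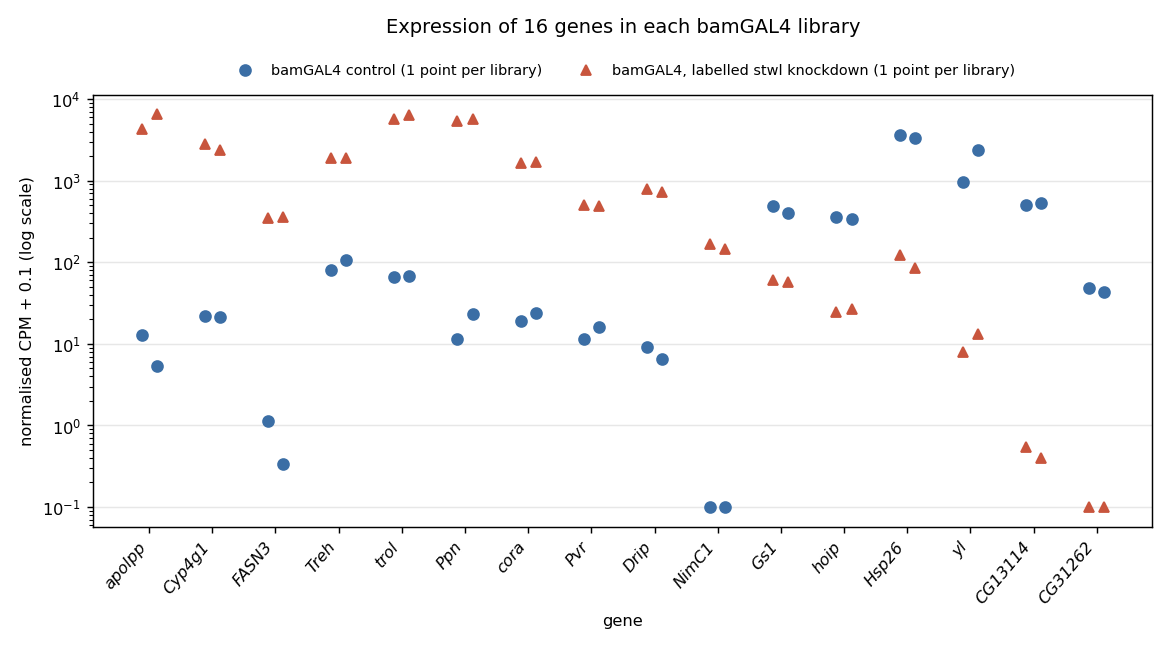
Normalised expression (CPM + 0.1, log scale, vertical axis) of 16 genes named in the text (horizontal axis) in the 2 bamGAL4 controls (circles) and the 2 libraries labelled knockdown (triangles), 1 point per library. The genes shown were picked among those called, so groups that stand apart follow from the choice. The libraries labelled knockdown lie above for the first 10 genes and below for the last 6. NimC1 had no count in either control and CG31262 none in either library labelled knockdown.

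The list counts from here on are to be read against all genes tested, of which 35% were higher and 33.1% lower. For members with at least 5 CPM in both controls the shares over all such genes were 23.2% and 43.6%. Among genes of energy metabolism, sugar-handling genes were more often higher than lower. 10 of the 18 genes of glycolysis and gluconeogenesis tested were higher and 0 lower (median log2 fold change 0.91), and of the 14 with at least 5 CPM in both controls 6 were higher and 0 lower (median 0.34). Those with the smallest adjusted p were Gpo1, Hex-C, Ldh and fbp. Gpo1, mitochondrial glycerol-3-phosphate dehydrogenase, was at 9.69 and 13.8 CPM in the controls against 174 and 152 CPM under the knockdown label (log2 change 3.79, SE 0.28, adjusted p = 1.71e-06). The hexokinase gene Hex-C was at 1.57 and 0.95 against 58.8 and 46 CPM (log2 change 5.41, SE 0.48, adjusted p = 5.25e-06). Also higher were the lactate dehydrogenase gene Ldh (log2 change 4.31, SE 0.38, adjusted p = 5.29e-06) and the gluconeogenic fructose bisphosphatase gene fbp (log2 change 2.47, SE 0.24, adjusted p = 1.13e-05). 14 of the 25 genes of the TCA cycle and pyruvate oxidation tested were higher and 1 lower (median log2 fold change 0.71). In that list malic enzyme, encoded by Men, was at 157 and 226 against 2015 and 1704 CPM (log2 change 3.28, SE 0.28, adjusted p = 4.65e-06). The citrate synthase gene kdn was at 118 and 159 against 374 and 370.1 CPM (log2 change 1.43, SE 0.22, adjusted p = 0.00023). Without library 1 labelled knockdown, 9 genes of that list were higher. Genes of the use and making of trehalose, the main sugar of the haemolymph, also rose. Trehalase, encoded by Treh (FBgn0003748, dm6 2R:21074018-21088945), was at 81.3 and 107 against 1918 and 1910.5 CPM (log2 change 4.35, SE 0.29, adjusted p = 8.34e-07), and trehalose-phosphate synthase, encoded by Tps1, at 7.72 and 8.94 against 364 and 308 CPM (log2 change 5.33, SE 0.59, adjusted p = 8.10e-05). The trehalose transporter gene Tret1-1 (log2 change 1.92, SE 0.25, adjusted p = 7.42e-05) and the sugar-sensing transcription factor gene Mondo (log2 change 1.92, SE 0.27, adjusted p = 0.000148) were higher as well. In the list of glycogen, trehalose and sugar transport, 7 of the 16 listed genes tested were higher and 3 lower (median log2 fold change 0.78), and of the 14 with at least 5 CPM in both controls 6 were higher and 3 lower (median 0.24). The summed level of the fat body markers, which moved the same way, is given above, and its part in these rises was not tested.

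Subunits of the respiratory chain did not follow these lists. 3 of the 69 oxidative phosphorylation subunit genes tested were higher and 10 lower (median log2 fold change −0.14). The falls with the smallest adjusted p were in complex I genes. ND-15 was at 129 and 103 CPM in the controls against 55.6 and 54.6 CPM under the knockdown label (log2 change −1.07, SE 0.22, adjusted p = 0.00172). ND-ACP was at 214 and 241 against 117 and 103 CPM (log2 change −1.05, SE 0.25, adjusted p = 0.00417). The direction of the list turned with the processing. Its median became 0.09 with RLE scaling, 0.72 with ribosomal protein scaling, 0.37 with the length trend removed (21 higher, 1 lower) and 0.03 without library 2 labelled knockdown (2 lower), or 6 lower without library 1 labelled knockdown. Neither ND-15 nor ND-ACP was called once the length trend was removed (−0.42 and −0.45).

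Lipid genes split by member. 15 of the 28 genes of fatty acid synthesis, lipid storage and lipolysis tested were higher and 7 lower (median log2 fold change 0.80). The fatty acid synthase paralogs FASN3 (FBgn0287184, dm6 3L:25752859-25762779) and FASN2 showed the largest called rises of the 4 members named by smallest p. FASN3 was at 1.05 and 0.237 CPM in the controls against 352 and 361 CPM under the knockdown label (log2 change 9.28, SE 0.72, adjusted p = 7.53e-06) and FASN2 at 0.655 and 0.317 against 87.5 and 75.5 CPM (log2 change 7.45, SE 0.58, adjusted p = 2.67e-06). The perilipin gene Lsd-1, of the lipid droplet surface, was at 2.62 and 5.86 against 75.3 and 72.8 CPM (log2 change 4.08, SE 0.43, adjusted p = 2.02e-05), while the fatty acid transport protein gene Fatp3 fell, from 37.1 and 54.7 to 5.67 and 5.26 CPM (log2 change −3.07, SE 0.30, adjusted p = 1.18e-05). With the length trend removed 8 members of that list were higher, and without library 1 labelled knockdown 9 were higher and 3 lower, while ribosomal protein scaling left 2 lower. 4 of the 19 genes of fatty acid beta-oxidation tested were higher and 5 lower (median log2 fold change −0.11). In that list Mfe2, a peroxisomal multifunctional enzyme, was at 15.8 and 24.3 against 90.9 and 88 CPM (log2 change 2.15, SE 0.27, adjusted p = 6.62e-05). The gene Echs1, mitochondrial enoyl-CoA hydratase, was at 226 and 306 against 99.6 and 81.6 CPM (log2 change −1.55, SE 0.23, adjusted p = 0.00022). Its median turned to 0.11 with RLE scaling, 0.74 with ribosomal protein scaling and 0.16 with the length trend removed.

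Most genes of nucleotide synthesis were lower, and amino acid metabolism was mixed. 4 of the 23 genes of nucleotide synthesis tested were higher and 16 lower (median log2 fold change −1.38). Ribosomal protein scaling left 9 of them lower, with a median of −0.51. The dUTPase gene went from 235 and 223 to 22 and 17.3 CPM (log2 change −3.54, SE 0.30, adjusted p = 3.80e-06), and dnk, of deoxynucleoside salvage, from 229.5 and 216 to 19.5 and 20.2 CPM (log2 change −3.49, SE 0.34, adjusted p = 9.47e-06). Among the members called higher, Prat2, a paralog of the first enzyme of purine synthesis, was at 0.524 and 1.11 CPM in the controls against 47.8 and 50.6 CPM under the knockdown label (log2 change 5.82, SE 0.45, adjusted p = 2.18e-06). Likewise su(r), dihydropyrimidine dehydrogenase of pyrimidine breakdown, was at 1.83 and 4.51 against 101 and 82.9 CPM (log2 change 4.80, SE 0.46, adjusted p = 1.06e-05). 16 of the 29 genes of amino acid, one-carbon and polyamine metabolism tested were higher and 6 lower (median log2 fold change 1.01). Of the 20 with at least 5 CPM in both controls 7 were higher and 6 lower (median 0.25). Over all genes at that level 23.2% were higher and 43.6% lower, with a median of −0.53. The glutamine synthetase paralogs moved in opposite directions. Gs1 (FBgn0001142, dm6 2L:132077-134472), the mitochondrial form, was at 493 and 405 against 61.2 and 57.2 CPM (log2 change −2.92, SE 0.23, adjusted p = 2.78e-06). The gene Gs2, the cytosolic form, was at 7.07 and 7.91 against 416 and 389 CPM (log2 change 5.74, SE 0.30, adjusted p = 2.49e-07). Spermine synthase, encoded by Sms, was lower (log2 change −2.70, SE 0.22, adjusted p = 2.78e-06), and phenylalanine hydroxylase, encoded by Hn, higher (log2 change 4.98, SE 0.42, adjusted p = 3.76e-06). Leaving out either control or library 1 labelled knockdown left 10 members of that list higher.

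Of the detoxification families, cytochrome P450 and UDP-glycosyltransferase genes were mostly higher, but most of them were low in the controls, and glutathione S-transferases were more often lower. 45 of the 60 cytochrome P450 genes tested were higher and 4 lower (median log2 fold change 3.76, or 3.69 with members at 0 counts in a group set at their bound). Of the 15 with at least 5 CPM in both controls 5 were higher and 4 lower (median 0.00). The other 45 were below 5 CPM in at least 1 control. 17 of the 22 UDP-glycosyltransferase genes tested were higher and 0 lower (median log2 fold change 4.60, or 4.38 with members at 0 counts in a group set at their bound), and of the 4 with at least 5 CPM in both controls 1 was higher and 0 lower (median −0.01). In that family Ugt36D1 was at 9.82 and 8.15 CPM in the controls against 106 and 95.6 CPM under the knockdown label (log2 change 3.50, SE 0.26, adjusted p = 1.60e-06). Among glutathione S-transferases 6 of the 25 genes tested were higher and 12 lower (median log2 fold change −0.51), and of the 19 with at least 5 CPM in both controls 3 were higher and 11 lower (median −0.82). GstO1 was at 76.7 and 51.5 against 4.34 and 4.47 CPM (log2 change −3.86, SE 0.30, adjusted p = 2.43e-06). The level of GstE12 was 49 and 49.7 against 455 and 321 CPM (log2 change 2.98, SE 0.24, adjusted p = 3.15e-06). Their median turned to 0.10 with the length trend removed and 0.35 with ribosomal protein scaling, and the count of lower members fell to 5 without library 2 labelled knockdown. Of antioxidant and metal-handling genes, 12 of the 28 listed genes tested were higher and 6 lower (median log2 fold change 0.42). Catalase, encoded by Cat, was at 30.5 and 43.8 against 644 and 491 CPM (log2 change 3.93, SE 0.27, adjusted p = 9.77e-07), the ferritin gene Fer2LCH at 219 and 172 against 1125 and 1073 CPM (log2 change 2.49, SE 0.24, adjusted p = 1.01e-05). The metallothionein gene MtnA was at 128 and 60.4 against 614 and 634 CPM (log2 change 2.73, SE 0.35, adjusted p = 6.73e-05). Gclm, the modifier subunit of glutathione synthesis, went from 172 and 253 to 35.1 and 28.4 CPM (log2 change −2.74, SE 0.31, adjusted p = 2.73e-05). Leaving out control 2, library 1 or library 2 labelled knockdown left 2, 3 and 1 lower members, and RLE and ribosomal protein scaling left 2 and 1.

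Genes of the extracellular matrix were higher with few exceptions. 27 of the 29 genes of the extracellular matrix and its remodelling tested were higher and 0 lower (median log2 fold change 5.01). Of the 17 with at least 5 CPM in both controls 17 were higher and 0 lower (median 4.04), so the count does not come from members near the floor. Their summed level was 778 and 1163 CPM in the controls against 31004 and 30844 CPM under the knockdown label. Besides trol, Ppn and Pxn, the collagen-binding protein gene SPARC was at 17.7 and 21.6 CPM in the controls against 799 and 595 CPM under the knockdown label (log2 change 5.14, SE 0.27, adjusted p = 2.75e-07), the laminin alpha gene wb at 1.7 and 2.69 against 395 and 474 CPM (log2 change 7.58, SE 0.41, adjusted p = 2.95e-07). The gene Glt, encoding the basement membrane protein glutactin, was at 1.44 and 3.32 against 925 and 818 CPM (log2 change 8.44, SE 0.41, adjusted p = 2.34e-07). Haemocyte and fat body markers, cells known to make matrix proteins, rose with them as given above, and their part in these values was not tested.

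Lists of the secretory machinery that such proteins pass through had medians near 0 or below. For ER translocation and folding, 6 of the 35 listed genes tested were higher and 17 lower (median log2 fold change −0.66). Of the 34 with at least 5 CPM in both controls 5 were higher and 17 lower (median −0.66). Over all genes at that level 43.6% were lower, with a median of −0.53. The channel subunit gene Sec61gamma was at 312 and 232 CPM in the controls against 69.9 and 72.1 CPM under the knockdown label (log2 change −1.94, SE 0.27, adjusted p = 0.000128). The gene Srp9, of the signal recognition particle, was at 145 and 109 against 29.9 and 23.6 CPM (log2 change −2.25, SE 0.33, adjusted p = 0.00017). The ER list had a median of 0.22 with 3 members lower under ribosomal protein scaling, and 9 and 8 lower without library 1 and library 2 labelled knockdown. For coated vesicles and Golgi traffic, 7 of the 42 listed genes tested were higher and 10 lower (median log2 fold change −0.21). Of the 41 with at least 5 CPM in both controls 7 were higher and 10 lower (median −0.24), to be read against the same shares. Both Sec24 genes of the COPII cargo coat were called higher. Sec24CD was at 46.5 and 76.9 against 180.0 and 187 CPM (log2 change 1.57, SE 0.26, adjusted p = 0.000393). Sec24AB was at 38.1 and 60.9 against 123 and 118 CPM (log2 change 1.28, SE 0.26, adjusted p = 0.00144). Neither was called after removal of the length trend (0.47 and 0.14). Sec13, of the outer coat, was lower (log2 change −1.23, SE 0.23, adjusted p = 0.000997, and −0.38, not called, with ribosomal protein scaling). That list had a median of 0.60 and 0 members lower with ribosomal protein scaling, and 5 lower without library 2 labelled knockdown. For glycosylation, 15 of the 42 listed genes tested were higher and 10 lower (median log2 fold change 0.10). That is 35.7% higher and 23.8% lower, against 35% and 33.1% of all genes. Of the 40 with at least 5 CPM in both controls 13 were higher and 10 lower (median 0.03). Over all genes at that level 23.2% were higher and 43.6% lower. The glycosylation list had a median of −0.12 under library totals and −0.04 without library 1 labelled knockdown. Ribosomal protein scaling left 2 of its members lower, and leaving out control 2, library 1 or library 2 labelled knockdown left 5, 5 and 3. Among its members with the smallest adjusted p, Pgant2, a transferase of O-linked glycans, was at 0.655 and 0.633 against 42 and 45 CPM (log2 change 6.05, SE 0.44, adjusted p = 1.58e-06). The gene fng, the Fringe transferase that acts on Notch, was at 6.02 and 9.5 against 67 and 60.8 CPM (log2 change 3.02, SE 0.30, adjusted p = 1.06e-05). The sulfotransferase gene sfl, of heparan sulfate, was at 15.3 and 20.1 against 87.2 and 84.6 CPM (log2 change 2.27, SE 0.26, adjusted p = 3.15e-05).

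Lysosomal genes were more often higher than lower, and secreted-protein families were mixed. 21 of the 42 genes of lysosomes and autophagy tested were higher and 3 lower (median log2 fold change 0.69), and of the 34 with at least 5 CPM in both controls 17 were higher and 3 lower (median 0.51). The cholesterol transporter gene Npc1a was at 35.2 and 43.4 CPM in the controls against 463 and 503 CPM under the knockdown label (log2 change 3.62, SE 0.23, adjusted p = 6.43e-07), the lysosomal mannosidase gene LManII at 33 and 58.6 against 425 and 410.0 CPM (log2 change 3.18, SE 0.30, adjusted p = 7.58e-06). The Batten disease homologue Cln7 was at 3.27 and 4.67 against 49.5 and 39 CPM (log2 change 3.46, SE 0.32, adjusted p = 7.88e-06). Of serine proteases and serpins, 19 of the 38 listed genes tested were higher and 8 lower (median log2 fold change 1.09). The direction turned among better expressed members, since of the 20 with at least 5 CPM in both controls 5 were higher and 8 lower (median −2.10). The serpin gene Spn43Ab was at 1.7 and 2.85 against 105 and 80.4 CPM (log2 change 5.30, SE 0.35, adjusted p = 7.91e-07). The serine protease gene SP1173 was at 13.7 and 13.5 against 1116 and 1100.2 CPM (log2 change 6.34, SE 0.36, adjusted p = 3.56e-07). Leaving out any 1 bamGAL4 library left 3 or 4 lower members of that list, ribosomal protein scaling 5, the replicate block 13 and the bamGAL4 libraries alone 14. Of odorant-binding and related proteins 17 of 71 in the table were tested, and of cuticle proteins 22 of 117. 14 of the 17 odorant-binding and related genes tested were higher and 2 lower (median log2 fold change 4.77), and of the 4 with at least 5 CPM in both controls 2 were higher and 2 lower (median 1.64). 10 of the 22 cuticle protein genes tested were higher and 2 lower (median log2 fold change 2.12), and of the 3 with at least 5 CPM in both controls 0 were higher and 1 lower (median −1.19). The 1 lower member at that level was the chitinase gene Cht2, which the cuticle list also holds. It fell from 59 and 77.2 to 1.59 and 2.19 CPM (log2 change −5.17, SE 0.49, adjusted p = 9.60e-06). The lipid-binding NPC2-type gene Npc2g was at 0.524 and 0.791 against 51.3 and 45.4 CPM (log2 change 6.13, SE 0.47, adjusted p = 2.10e-06). Leaving out any 1 library left 5 or 6 cuticle genes higher.

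**Figure D2:**
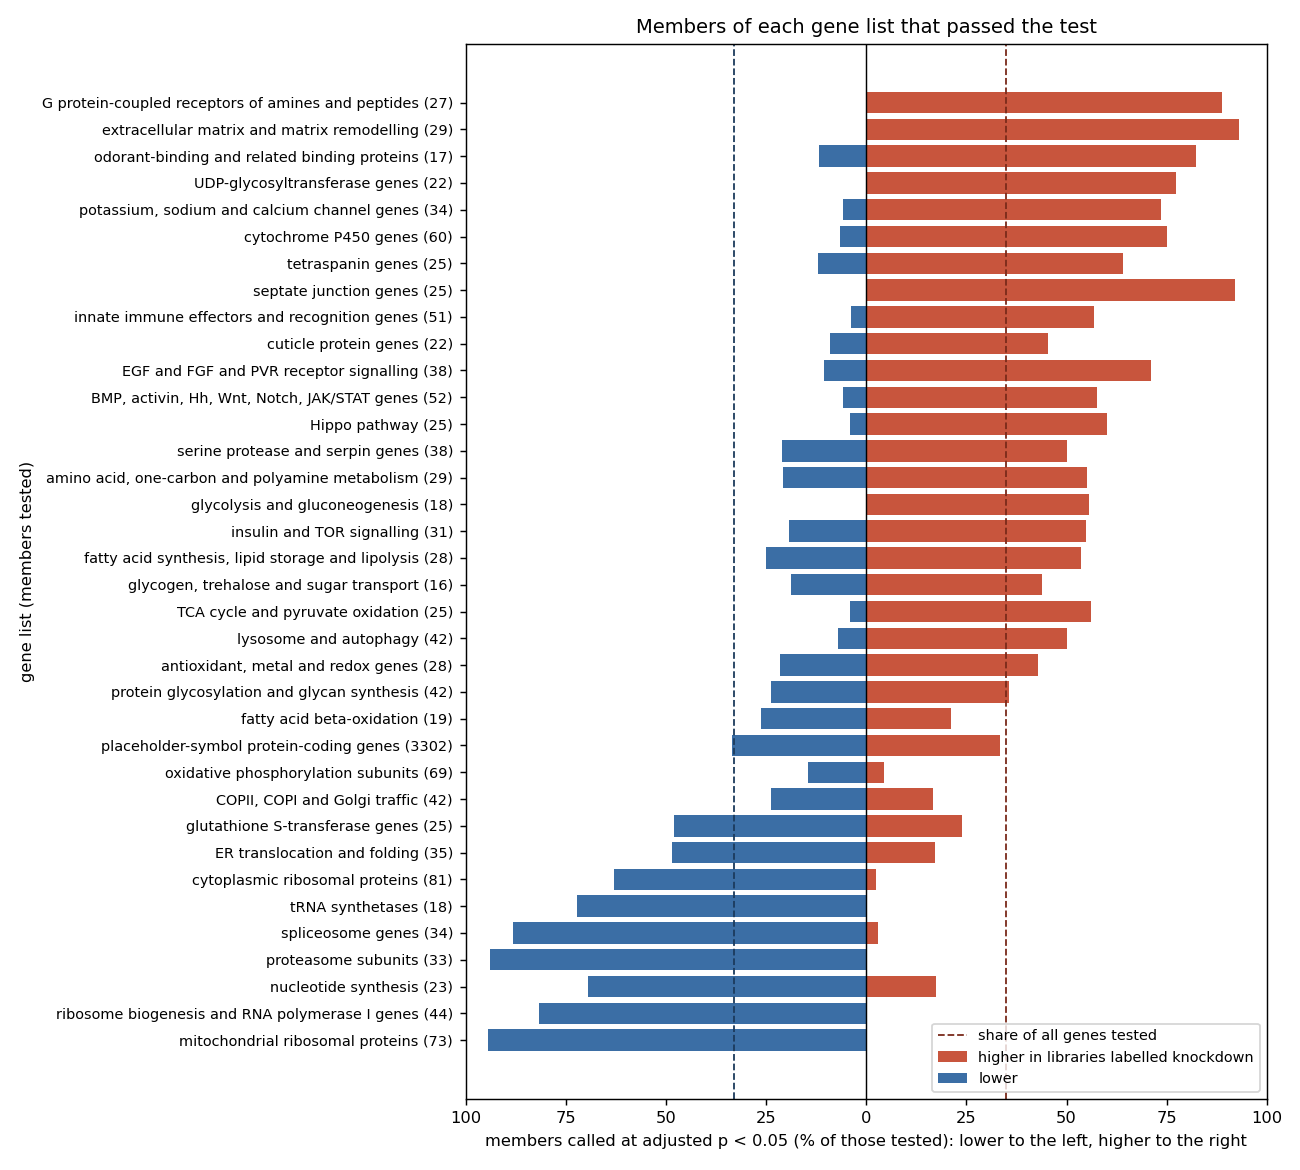
Share of tested members of each of 36 gene lists (vertical axis, number tested in brackets) that were higher (bars to the right) or lower (bars to the left) at an adjusted p below 0.05 in the libraries labelled knockdown, in percent of members tested (horizontal axis), with dashed lines at the shares of all genes tested, 35% and 33.1%. Lists are in the order of their median log2 fold change, from mitochondrial ribosomal proteins at the bottom to G protein-coupled receptors at the top.

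Signalling genes, most of them receptors and ligands, were more often higher than all genes tested (35%), but long genes were so too. 27 of the 38 genes of EGF, FGF and PVR receptor signalling tested were higher and 4 lower (median log2 fold change 1.88), and of the 25 with at least 5 CPM in both controls 15 were higher and 4 lower (median 0.81). Pvr, the receptor of PDGF- and VEGF-related factors, was at 11.5 and 16.1 CPM in the controls against 508 and 496 CPM under the knockdown label (log2 change 5.17, SE 0.29, adjusted p = 3.25e-07), and its ligand gene Pvf2 at 0.786 and 0.712 against 54.1 and 42.9 CPM (log2 change 6.01, SE 0.39, adjusted p = 6.92e-07). The ligand gene Pvf3 was at 0.524 and 0.158 against 60.5 and 73.5 CPM (log2 change 7.73, SE 0.49, adjusted p = 6.52e-07). The FGF receptor gene htl, known from mesoderm, was at 2.23 and 4.83 against 314 and 324 CPM (log2 change 6.44, SE 0.40, adjusted p = 6.20e-07). Receptor and ligands were thus higher in the same libraries. For the BMP, activin, Hedgehog, Wnt, Notch and JAK/STAT genes, 30 of the 52 listed genes tested were higher and 3 lower (median log2 fold change 1.69, or 1.55 with members at 0 counts in a group set at their bound), and of the 31 with at least 5 CPM in both controls 16 were higher and 3 lower (median 0.75). The BMP ligand gene dpp was at 1.31 and 2.29 against 119.9 and 118 CPM (log2 change 5.99, SE 0.38, adjusted p = 6.20e-07), the Wnt ligand gene Wnt4 at 0.131 and 0.396 against 23.8 and 25.6 CPM (log2 change 6.35, SE 0.44, adjusted p = 1.16e-06), the Wnt receptor gene fz2 at 8.77 and 4.43 against 453 and 470.0 CPM (log2 change 6.16, SE 0.44, adjusted p = 1.60e-06). The Hedgehog transcription factor gene ci was at 3.8 and 2.45 against 286 and 339.7 CPM (log2 change 6.67, SE 0.32, adjusted p = 2.13e-07). With the length trend removed the median of that list fell to 0.60 (23 higher, 12 lower). The EGF, FGF and PVR list then had a median of 1.265 (24 higher, 9 lower). Median transcript lengths were 3767 bases for the former list and 4487 for the latter. Of the fifth of all genes with the longest transcripts (from 3913 bases) 60.7% were higher.

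Nutrient and growth signalling was less uniform. 17 of the 31 genes of insulin and TOR signalling tested were higher and 6 lower (median log2 fold change 0.83), and of the 29 with at least 5 CPM in both controls 16 were higher and 6 lower (median 0.83). Thor, the 4E-BP that holds back translation, was at 34.3 and 38.2 CPM in the controls against 536 and 431 CPM under the knockdown label (log2 change 3.74, SE 0.28, adjusted p = 1.64e-06). The gene chico, the insulin receptor substrate, was at 20.0 and 15.5 against 91 and 94.6 CPM (log2 change 2.39, SE 0.23, adjusted p = 1.09e-05). The transcription factor gene REPTOR, active when TOR is off, was at 27.9 and 22.5 against 98.6 and 125 CPM (log2 change 2.15, SE 0.24, adjusted p = 2.43e-05). The gene alc, the beta subunit of AMP kinase, was at 50.8 and 74.7 against 306 and 252 CPM (log2 change 2.15, SE 0.25, adjusted p = 3.68e-05). With the length trend removed that list turned to a median of −0.13, with 7 members higher and 11 lower. 15 of the 25 Hippo pathway genes tested were higher and 1 lower (median log2 fold change 1.45), and of the 20 with at least 5 CPM in both controls 11 were higher and 1 lower (median 0.84). The polarity gene dlg1 was at 61.9 and 55.5 against 503 and 624 CPM (log2 change 3.26, SE 0.24, adjusted p = 1.69e-06), sd, the transcription factor partner of Yorkie, at 30.4 and 42.3 against 233 and 286 CPM (log2 change 2.83, SE 0.25, adjusted p = 4.69e-06), and the upstream genes ex (log2 change 4.80, SE 0.39, adjusted p = 2.78e-06) and kibra (log2 change 2.42, SE 0.23, adjusted p = 9.60e-06) were higher. All 8 genes named here stood above their controls in both libraries, but they were picked by smallest adjusted p. The groups did not overlap for 87.2% of all genes tested.

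Receptors of amines and peptides were low in the controls and detected in the libraries labelled knockdown. Of the 47 listed 27 were tested, and 24 of the 27 genes tested were higher and 0 lower (median log2 fold change 6.49, or 5.50 with members at 0 counts in a group set at their bound). Of the 2 with at least 5 CPM in both controls 1 was higher and 0 lower (median 0.88). The octopamine receptor gene Octbeta2R (FBgn0038063, dm6 3R:12550625-12595725) was at 1.83 and 1.5 CPM in the controls against 149.8 and 148 CPM under the knockdown label (log2 change 6.49, SE 0.34, adjusted p = 2.72e-07). The glial receptor gene moody was at 2.62 and 3.4 against 104 and 112 CPM (log2 change 5.14, SE 0.29, adjusted p = 3.25e-07). The myosuppressin receptor gene MsR1 had 1 count over both controls and 93.2 and 104 CPM under the knockdown label (ratio of normalised summed counts 1991, 95% counting interval 357 to 78669). For ion channels, 25 of the 34 listed genes tested were higher and 2 lower (median log2 fold change 3.94, or 3.45 with members at 0 counts in a group set at their bound), and of the 11 with at least 5 CPM in both controls 6 were higher and 2 lower (median 0.79). The mechanosensitive channel gene Piezo was at 9.3 and 9.57 against 300.1 and 368 CPM (log2 change 5.14, SE 0.30, adjusted p = 4.53e-07), and the ryanodine receptor gene RyR, the calcium release channel of muscle, at 0.393 and 0.791 against 349 and 393 CPM (log2 change 9.17, SE 0.52, adjusted p = 4.25e-07). Muscle and neuron markers moved with both lists, as given above, and their part was not tested. Of innate immune genes, 29 of the 51 listed genes tested were higher and 2 lower (median log2 fold change 2.58), and of the 12 with at least 5 CPM in both controls 4 were higher and 2 lower (median −0.11). The Toll pathway factor gene Dif was at 3.14 and 1.9 against 404 and 418 CPM (log2 change 7.39, SE 0.41, adjusted p = 3.47e-07), Tep2 at 3.54 and 3.88 against 128 and 129 CPM (log2 change 5.11, SE 0.29, adjusted p = 3.56e-07). The prophenoloxidase gene PPO2 was at 0.393 and 1.35 against 119.8 and 100.4 CPM (log2 change 6.84, SE 0.47, adjusted p = 9.77e-07), and 19 members were higher without control 1.

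Septate junction genes rose with few exceptions, while tetraspanin genes were mixed once those low in the controls were set aside. 23 of the 25 septate junction genes tested were higher and 0 lower (median log2 fold change 2.84), and of the 24 with at least 5 CPM in both controls 22 were higher and 0 lower (median 2.55). The cytoskeletal linker gene cora (FBgn0010434, dm6 2R:19229063-19243751) was at 18.7 and 23.9 CPM in the controls against 1649.5 and 1704 CPM under the knockdown label (log2 change 6.29, SE 0.35, adjusted p = 3.28e-07), the neurexin gene Nrx-IV at 24.4 and 26 against 404 and 449 CPM (log2 change 4.08, SE 0.26, adjusted p = 6.72e-07). The sodium pump subunit gene nrv2 was at 25.8 and 19.1 against 454 and 457 CPM (log2 change 4.35, SE 0.29, adjusted p = 8.34e-07). The sodium pump catalytic subunit gene Atpalpha was at 208 and 274 against 3233 and 3271 CPM (log2 change 3.75, SE 0.27, adjusted p = 1.25e-06). 16 of the 25 tetraspanin genes tested were higher and 3 lower (median log2 fold change 3.02), and of the 10 with at least 5 CPM in both controls 4 were higher and 3 lower (median 0.33). Within the cluster of tetraspanin genes at 42E, Tsp42Ee was at 284 and 204 against 2574 and 2390.1 CPM (log2 change 3.35, SE 0.27, adjusted p = 2.78e-06), Tsp42Eg at 4.71 and 3.72 against 138 and 129.5 CPM (log2 change 5.00, SE 0.36, adjusted p = 1.43e-06). The level of Tsp42Ed was 2.23 and 2.69 against 138 and 109.8 CPM (log2 change 5.63, SE 0.45, adjusted p = 2.97e-06). Atpalpha and Tsp42Ee were already above 200 CPM in both controls, so these rises are not of genes near the floor.

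The machinery of gene expression and protein turnover was lower for most members of each list. 0 of the 44 ribosome biogenesis and RNA polymerase I genes tested were higher and 36 lower (median log2 fold change −1.54). The nucleolar gene hoip (FBgn0286786, dm6 2L:9699791-9700459) was at 355 and 335 CPM in the controls against 24.4 and 26.5 CPM under the knockdown label (log2 change −3.76, SE 0.24, adjusted p = 6.44e-07), the nucleolar protein gene mbm at 121 and 119 against 11.7 and 16.4 CPM (log2 change −3.10, SE 0.27, adjusted p = 5.04e-06). The kinase gene RIOK1 was at 78.8 and 76.9 against 13.5 and 14.7 CPM (log2 change −2.47, SE 0.24, adjusted p = 1.13e-05). 1 of the 34 spliceosome genes tested was higher and 30 lower (median log2 fold change −1.21). The Sm core gene SmB was at 125 and 104 against 17.1 and 14.2 CPM (log2 change −2.87, SE 0.26, adjusted p = 6.82e-06). SmD1 was at 133 and 108 against 17.4 and 16.5 CPM (log2 change −2.83, SE 0.27, adjusted p = 7.88e-06), and the splice site factor gene U2af38 was also lower (log2 change −2.28, SE 0.23, adjusted p = 1.15e-05). 0 of the 33 proteasome subunit genes tested were higher and 31 lower (median log2 fold change −1.21). There the core subunit gene Prosalpha1 was at 379.8 and 423 against 117 and 96.6 CPM (log2 change −1.91, SE 0.23, adjusted p = 5.08e-05). The ATPase gene Rpt6 was at 329 and 352 against 118 and 113 CPM (log2 change −1.56, SE 0.20, adjusted p = 6.83e-05). 0 of the 18 tRNA synthetase genes tested were higher and 13 lower (median log2 fold change −1.0), led by AsnRS (log2 change −1.40, SE 0.23, adjusted p = 0.000345) and TrpRS (log2 change −1.56, SE 0.26, adjusted p = 0.00038). 0 of the 73 mitochondrial ribosomal protein genes tested were higher and 69 lower (median log2 fold change −1.66), with mRpS10 at 87.1 and 82.5 against 11.4 and 14.9 CPM (log2 change −2.69, SE 0.24, adjusted p = 6.18e-06) and mRpL12 at 74.9 and 92.6 against 18.2 and 17.2 CPM (log2 change −2.24, SE 0.23, adjusted p = 1.69e-05). All 5 lists kept a negative median under every scaling, but scaling to the ribosomal protein genes left 18, 12, 8, 0 and 38 members lower, in the order given.

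Cytoplasmic ribosomal protein genes had the median nearest 0 of these lists, and 26 of them were called different between the drivers in the main fit. 2 of the 81 cytoplasmic ribosomal protein genes tested were higher and 51 lower (median log2 fold change −0.85). RpL41 was at 3693 and 3139 CPM in the controls against 998 and 836 CPM under the knockdown label (log2 change −1.90, SE 0.31, adjusted p = 0.000376), RpL36A at 1319 and 1705 against 539.8 and 512 CPM (log2 change −1.52, SE 0.24, adjusted p = 0.000292). The level of RpL29 was 1252 and 752 against 321 and 306 CPM (log2 change −1.68, SE 0.27, adjusted p = 0.000344). The median of the same 81 genes with nosGAL4 was 0.62, and the effect was lower with bamGAL4 for 26 of them, against 1.52% of all genes. For RpL41 the difference, bamGAL4 effect minus nosGAL4 effect, was −2.18 (SE 0.43, adjusted p = 0.0333). Over all genes the calls of this difference changed widely with single libraries left out, as given at the end. How many of the 26 calls remain in those fits was not counted. The bamGAL4 median was −0.25 with 22 members lower once the length trend was removed, and 24 were lower without library 2 labelled knockdown. By construction the median was 0.00 with scaling to these same genes.

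**Figure D3:**
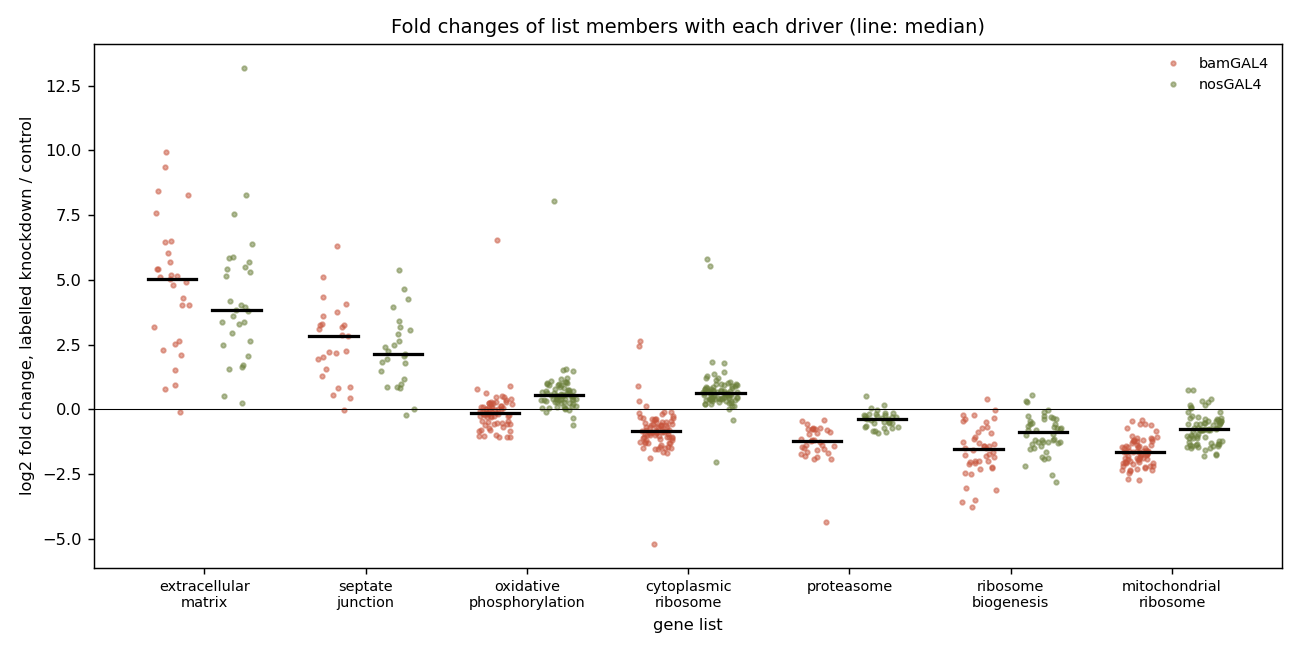
Log2 fold change, labelled knockdown over control (vertical axis), of every tested member of 7 gene lists (horizontal axis) with bamGAL4 and with nosGAL4, 1 point per gene, with a black line at the median. Matrix and septate junction genes lie mostly above 0 with both drivers, mitochondrial ribosomal, proteasome and ribosome biogenesis genes mostly below, and cytoplasmic ribosomal proteins have a median of −0.85 with bamGAL4 and 0.62 with nosGAL4.

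Genes known by a placeholder symbol only changed in both directions, and the difference of their shares from those of other genes was not tested. Of 6423 such protein-coding genes listed, 3302 were tested, of which 1099 (33.3%) were higher and 1109 (33.6%) lower, against 36.1% and 32.7% of the other genes tested. Of the 2185 with at least 5 CPM in both controls 384 (17.6%) were higher and 1071 (49.0%) lower (median −0.77), against 23.2% higher, 43.6% lower and a median of −0.53 over all genes at that level. No count was seen in either control for 101 of those that were higher, and in either library labelled knockdown for 15 of those that were lower. The 4 with the smallest adjusted p were all higher. CG30026 (FBgn0050026, dm6 2R:11408576-11409449) was at 3.54 and 3.48 CPM in the controls against 658 and 581 CPM under the knockdown label (log2 change 7.46, SE 0.29, adjusted p = 1.99e-07), CG33521 (FBgn0250819, dm6 4:1185768-1192985) at 0.786 and 0.791 against 306 and 345 CPM (log2 change 8.66, SE 0.34, adjusted p = 1.99e-07), CG1092 at 0.393 and 0.237 against 148 and 132 CPM (log2 change 8.82, SE 0.37, adjusted p = 1.99e-07). The level of CG16926 was 2.75 and 2.06 against 729 and 719.9 CPM (log2 change 8.25, SE 0.35, adjusted p = 1.99e-07). Each stood below 4 CPM in both controls and above 130 CPM in both libraries labelled knockdown. Among the largest rises by fold, CG45263 (FBgn0266801, dm6 3R:8364328-8477617) had no count in the controls and 63.1 and 98.2 CPM under the knockdown label, at least 538-fold higher. CG9400 (FBgn0030562, dm6 X:14288084-14289393) likewise had none in the controls and 66 and 53.5 CPM under the knockdown label, at least 406-fold higher. CG13793 had 1 count over both controls and 114.6 and 111 CPM under the knockdown label (ratio of normalised summed counts 2293, 95% counting interval 411 to 90593).

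The largest falls among these genes went to 0 or close to it. CG31262 (FBgn0051262, dm6 3R:17217116-17223074) was at 48.4 and 42.6 CPM in the controls and had no count in either library labelled knockdown, at least 319-fold lower. CG43965 (FBgn0264696, dm6 3L:8725520-8725774) was at 30.5 and 40.9 CPM in the controls and CG12716 (FBgn0030439, dm6 X:12974683-12976231) at 38 and 31.6 CPM in the controls, with none in the other group, at least 263-fold and 242-fold lower. CG13737 was at 16.1 and 19.6 CPM in the controls and also had none (at least 130.3-fold lower). CG13114 (FBgn0032127, dm6 2L:9545811-9547424) was the most abundant of the uncharacterised genes lost, at 501 and 538 CPM in the controls against 0.443 and 0.298 CPM under the knockdown label (log2 change −10.39, SE 1.09, adjusted p = 0.000193). Another 2 large falls, of a histone H1 copy and of CR41454, rested on controls that differed widely from each other. The H1 gene His1:CG33858 was at 32.0 and 7.91 CPM in the controls and is 1 of many near-identical copies, and its call was lost with no filter and without either library labelled knockdown.

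Fold changes followed transcript length. Genes were put in 5 equal classes by the length of their longest annotated transcript. The median log2 fold change was −0.83 in the shortest class (123 to 1143 bases), −0.59, −0.29 and 0.21 in the next, and 1.33 in the longest (3913 to 71382 bases). The share of genes higher rose from 21.2% to 60.7% and the share lower fell from 47.2% to 11.6%. Comparisons between lists of short genes (ribosomal, respiratory chain) and of long genes (receptors, matrix, channels) therefore run along this trend. After its removal 2784 genes were higher and 3107 lower.

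Genes of chromosome 4, the small and largely heterochromatic autosome, were higher more often in all than those of the other arms, a contrast between gene sets that was not tested beyond its counts. Of 75 tested (87 in the table) 55 were higher and 3 lower, with a median log2 fold change of 2.49. On the other chromosomes 34.7% were higher and 33.3% lower, with a median of −0.07. Of the 48 chromosome 4 genes with at least 5 CPM in both controls 34 were higher and 2 lower (median 1.70), against a median of −0.54 for 6593 such genes elsewhere. Length goes with this, since 37 of the 75 were in the longest class, where 34 were higher and 1 lower (median 3.45) against 60.1% higher and a median of 1.30 elsewhere. In the shortest 3 classes 5 of 19 (26.3%) were higher and 2 lower with a median of 0.29, against 25.1% higher and a median of −0.57 elsewhere, so the share of higher calls was much the same there. With the length trend removed 46 were higher and 6 lower, with a median of 1.52. Chosen after their values were seen, examples besides apolpp and ci were RhoGAP102A, from 0.131 and 0.0791 to 104 and 132 CPM, CG1674, from 3.14 and 1.42 to 745 and 789 CPM, and CG11155, from 4.84 and 3.01 to 641 and 699 CPM.

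The controls themselves differed on this chromosome. Of the 48 genes with at least 5 CPM in both controls 44 were higher in control 1 than in control 2, with a median log2 difference of 0.67, against 2538 of 6593 other genes and a median of −0.14. Set against the mean of the nosGAL4 controls, over the 48 genes with at least 5 CPM in all 8 libraries, the median log2 level of chromosome 4 was −0.33 in control 1 and −1.14 in control 2. It was 0.94 and 0.99 in the bamGAL4 libraries labelled knockdown and 0.77 and 0.93 in those of nosGAL4. The same medians for the other arms lay between −0.42 and 0.19. Chromosome 4 was thus low in both bamGAL4 controls and high in all 4 libraries labelled knockdown. The number of copies of this chromosome in the flies was not tested, and in these counts a difference in copy number and one in expression per copy cannot be told apart. This holds for each fold change on chromosome 4, including those of apolpp, ci and CG33521. The median log2 fold change of its genes tested was 3.10 without control 1, 2.43 without control 2 (51 higher, 9 lower), 2.67 without library 1 labelled knockdown and 2.31 without library 2 (74 genes).

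**Figure D4:**
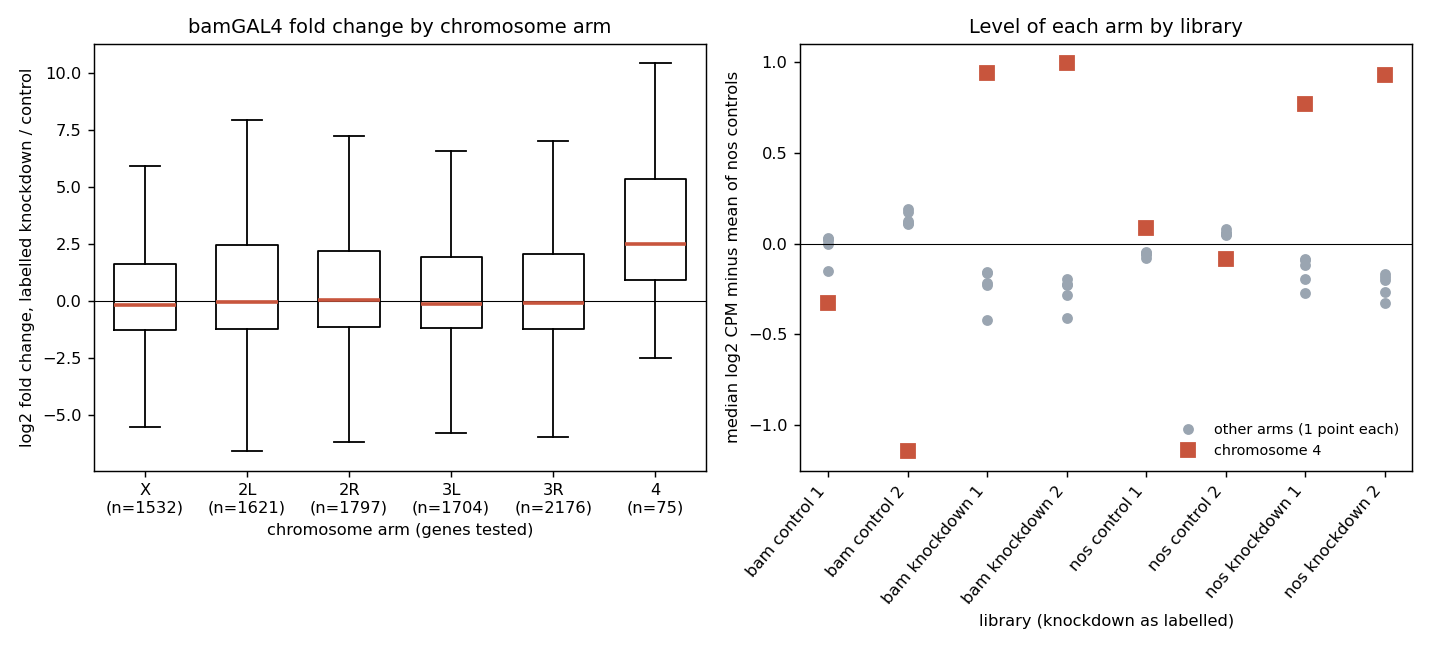
Left, log2 fold change with bamGAL4, labelled knockdown over control (vertical axis), of the genes tested on each chromosome arm (horizontal axis), with the median as a coloured line, boxes over the middle quartiles and whiskers to the last gene within 1.5 box heights. Right, the median log2 CPM of each arm in each library relative to the mean of the nosGAL4 controls, with chromosome 4 as squares, which lies at −0.33 and −1.14 in the bamGAL4 controls and between 0.77 and 0.99 in the 4 libraries labelled knockdown.

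The drivers' effects were compared by testing the bamGAL4 effect minus the nosGAL4 effect. The nosGAL4 controls carried MKRS/TM6 and the bamGAL4 controls had no balancer listed, so a difference between drivers and one between control genotypes cannot be told apart in this test. It was higher for 104 genes (1.16%) and lower for 136 (1.52%) of the 8957, or 2.68% in all. Lipid and fat body genes were among those that rose more with bamGAL4. The difference was 4.63 (SE 0.80, adjusted p = 0.0326) for apolpp and 4.77 (SE 0.57, adjusted p = 0.00403) for the lipid transfer particle gene Apoltp. It was 6.15 (SE 0.88, adjusted p = 0.0155) for FASN3, 5.26 (SE 0.74, adjusted p = 0.00914) for FASN2 and 4.26 (SE 0.64, adjusted p = 0.0163) for Cyp4g1. In the nosGAL4 libraries Cyp4g1 was at 38 and 77.1 against 510.3 and 209.6 CPM with nosGAL4, and apolpp at 22.8 and 38.3 against 1101 and 432 CPM with nosGAL4. The difference was called for 4 of 15 fat body markers. The uncharacterised CG32581 had no count in the bamGAL4 controls and 38 and 35.7 CPM under the knockdown label. With nosGAL4 it was at 5.75 and 8.05 against 33.6 and 36.2 CPM. The fitted difference was 9.16 (SE 0.82, adjusted p = 0.00133). Its size depends on the small prior count added in the fit, as the bamGAL4 controls had no count. Hsp26 fell more with bamGAL4, with a difference of −3.69 (SE 0.38, adjusted p = 0.00159), and was at 1484 and 1686 against 709 and 515 CPM with nosGAL4.

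Genes of digestion gave the largest differences in the other direction. The lipase-like CG17192 differed by −13.42 (SE 2.10, adjusted p = 0.0275), and the serine protease gene Jon99Ci by −12.14 (SE 1.76, adjusted p = 0.0155). The carboxypeptidase-like CG12374 differed by −12.09 (SE 1.88, adjusted p = 0.0425), and the lysozyme gene LysD by −11.51 (SE 2.13, adjusted p = 0.0448). CG12374 was at 119 and 207 CPM in the controls against 7.26 and 7.65 CPM under the knockdown label and at 0 and 0.433 against 85.1 and 9.94 CPM with nosGAL4. The 16 oviduct, spermatheca and gut markers had a median log2 fold change of −0.89 with bamGAL4 and 7.61 with nosGAL4, and their part in these differences was not tested. In the difference test leaving out nosGAL4 library 2 labelled knockdown raised the calls to 573 higher and 997 lower, and leaving out bamGAL4 library 2 labelled knockdown cut them to 10 and 19.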

How the data were processed

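The authors deposited estimated counts, 1 column per library and 1 row per gene, which were not scaled. Builds and tools are taken per the submitters' processing notes, which list dm6, STAR 2.7.5b, Salmon 1.2.1, Trim Galore 0.6.6 and FastQC 0.11.8 without their roles. Per the labels' protocols, a directional kit was used on total RNA isolated with Trizol. Which annotation and strand setting served for counting is not given in the sources used here. Of the genes tested, 3139 overlap another gene on the other strand, and reads of such pairs may be mixed. Symbols, dm6 positions and transcript lengths came from the BDGP6 annotation, where 14048 of 14094 identifiers were found. Whole numbers made up 92.5% to 95.1% of each library's values.

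Counts were rounded and filtered with filterByExpr on the 4 groups (minimum count 10, total 15), which left 8957 genes. All 8 libraries entered 1 robust quasi-likelihood model in edgeR 4.0.16 (limma 3.58.1, R 4.3.3) with TMM factors and 4 residual degrees of freedom, so the groups share an estimate of the spread. Contrasts were the bamGAL4 effect and the bamGAL4 minus the nosGAL4 effect. Benjamini-Hochberg adjustment ran over all genes tested, with a threshold of 0.05. Standard errors were derived from the F statistic and fold changes use a prior count of 0.125. Bounds use a floor of 3 counts over a group, and groups with 1 to 3 counts get a ratio with an exact 95% interval. A count of 3 came to between 0.237 and 0.405 CPM. Floors and intervals cover counting error only.

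The members, the 45 gene lists (8 of them cell type markers) and the tests were chosen with earlier results of these data known. Genes were named by rule. The largest rises and falls by fold and in CPM, and those of placeholder symbols, were taken among calls whose groups did not overlap. Genes of the germline, late egg chamber and muscle lists were left out there. The rule also took the 4 members of each list with the smallest adjusted p, without these conditions. Last came the largest differences between drivers among those called in that test, outside the germline, late egg chamber and muscle lists. Not every gene so named is printed. Of the genes tested, 0 had a long noncoding RNA symbol, a class the rule also covered. Other genes given with a difference between drivers were tested in the same fit. On simulated counts of 8815 genes, 50 genes were changed at each of 2-, 4-, 8- and 16-fold, with the same fixed spread for all genes. The bamGAL4 test called 0%, 44%, 88% and 100% of them, and 5 of its 121 calls were unchanged genes. In the data 68.1% of genes were called and the spread was estimated, so these shares are not detection rates for the data.

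Alternatives were RLE size factors, library totals, scaling to ribosomal protein genes, DESeq2 1.42.0, no filter, a stricter filter (5 CPM in 2 libraries), the bamGAL4 libraries alone, each library left out, a replicate block and removal of the length trend.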

Additional observations from a re-analysis of the deposited data

Results flagged for a closer look

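These genes differed between the drivers in edgeR's quasi-likelihood test of the bamGAL4 effect minus the nosGAL4 effect on the log2 scale, and each value below is that difference. Among the controls, only those of nosGAL4 had a TM6 balancer listed, so driver and control genotype cannot be told apart in this difference. Of lipid transport and synthesis genes, apolpp by 4.63 (adjusted p = 0.0326), Apoltp by 4.77 (adjusted p = 0.00403), FASN2 by 5.26 (adjusted p = 0.00914), FASN3 by 6.15 (adjusted p = 0.0155), Cyp4g1 by 4.26 (adjusted p = 0.0163) and Npc2g by 3.58 (adjusted p = 0.0233) were higher with bamGAL4. Enzymes of sugar, amino acid and purine metabolism differed in the same direction, Hex-C by 3.72 (adjusted p = 0.0237), Hn by 2.52 (adjusted p = 0.05) and Prat2 by 3.03 (adjusted p = 0.0381). Receptor and channel genes did as well, MsR1 by 4.29 (adjusted p = 0.0295), Octbeta2R by 2.61 (adjusted p = 0.015), Piezo by 1.92 (adjusted p = 0.031) and Drip by 1.46 (adjusted p = 0.0487). For the matrix gene and the heparan sulfate enzyme the differences were Glt by 2.06 (adjusted p = 0.0448) and sfl by 1.97 (adjusted p = 0.0272). The uncharacterised CG32581 differed by 9.16 (adjusted p = 0.00133), a size that depends on the prior count, as the bamGAL4 controls had no count.

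In the other direction digestive genes differed most, CG17192 by −13.42 (adjusted p = 0.0275), Jon99Ci by −12.14 (adjusted p = 0.0155), CG12374 by −12.09 (adjusted p = 0.0425) and LysD by −11.51 (adjusted p = 0.0448). The oocyte receptor gene and the ribosomal protein genes named in the text differed by less, yl by −3.42 (adjusted p = 0.0308), RpS5b by −3.15 (adjusted p = 0.0433), RpL29 by −1.90 (adjusted p = 0.0336), RpL36A by −1.95 (adjusted p = 0.0233) and RpL41 by −2.18 (adjusted p = 0.0333). The heat shock gene Hsp26 differed by −3.69 (adjusted p = 0.00159) and the metallothionein gene MtnA by −2.31 (adjusted p = 0.0361). MtnA rose with both drivers, by 2.73 with bamGAL4 and 5.05 with nosGAL4. With 2 libraries a group no library could be tested as standing apart from its own group.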

How the results depend on the processing

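The counts of 3138 genes higher and 2961 lower moved by less than 1.5 times under the alternatives except with ribosomal protein scaling, which gave 1185 lower. Leaving out 1 bamGAL4 library gave 2461 to 2819 higher and 2024 to 2707 lower. For stwl the log2 fold change was 1.32 and called with ribosomal protein scaling and −0.44 with the length trend removed. The difference between drivers was less stable. From 104 higher it moved to 609 with DESeq2, 161 with RLE size factors, 179 with library totals, 248 with no filter and 3411 with ribosomal protein scaling. From 136 lower it moved to 455 with DESeq2, 289 with no filter and 89 with the replicate block. Leaving out each of the 8 libraries gave 10 higher (without bamGAL4 library 2 labelled knockdown) to 573 (without nosGAL4 library 2 labelled knockdown) and 17 lower (without bamGAL4 library 1 labelled knockdown) to 997 (again without nosGAL4 library 2). The cause was not tested. Over the bamGAL4 fold changes of the named genes, 1780 of 1807 values kept their direction and call. Of the rest, 23 lost the call (9 of them with ribosomal protein scaling and 4 with the length trend removed) and 4 gained it. The differences between drivers of single genes, including those flagged above, were not followed through the alternatives. Same-numbered bamGAL4 libraries did not deviate together (correlation −0.03), so the numbers name libraries only. The replicate block gave 2991 genes higher and 2752 lower.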
